A study of Mus musculus with 8 samples.

Results

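Pericentral hepatocyte genes are those expressed in the liver cells around the central vein, and 10 of them under Wnt control were followed here: Glul, Oat, Slc1a2, Slc1a4, Rhbg, Lgr5, Axin2, Tbx3, Gulo and Lect2. They were taken by gene symbol from a list that leaves out the cytochrome P450 genes. All 10 had a probe set, among 16492 probe sets tested. The values come from 4 livers of Amacr-/- mice and 4 livers of wild-type mice, all male C57BL/6 animals of 3 to 3.5 months, 1 array per liver. The labels name no promoter, Cre driver or treatment for either group. Amacr encodes alpha-methylacyl-CoA racemase, which turns branched-chain and bile acid intermediates into the form that peroxisomes can shorten. Each group held 4 biological replicates per the labels, which do not say whether animals shared a litter or cage.

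In the liver lobule blood runs from the portal vein to the central vein, and hepatocytes differ along this path. Endothelial cells of the central vein secrete Wnt ligands and R-spondins, which stabilise beta-catenin in the neighbouring hepatocytes and keep the pericentral genes on. The hepatocytes nearest to the vein take up glutamate and ammonium that escaped the urea cycle upstream and bind them into glutamine. Lgr5 and Axin2 are general read-outs of the Wnt signal and are used to mark these cells.

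The 250 bases before an annotated start site were available from RefSeq (GRCm38.p6) for 6 of the 10 genes, Glul, Slc1a2, Oat, Slc1a4, Axin2 and Lect2. They were searched on both strands for CTTTGAT, then for CTTTGTT and also for CTTTGAA, letters bound by T-cell factors, the DNA-binding partners of beta-catenin; the 3 motifs cannot fall on the same bases of a strand. The windows of Slc1a2 and Lect2 held 1 match each, of ATCAAAG, the opposite strand of CTTTGAT, and the other 4 windows held none. Of 32851 such windows in the table, 3.21% held CTTTGAT and 12.0% held any of the 3. The matches lay 207 bases before the start in Slc1a2 and 32 bases before it in Lect2. The Slc1a2 window belongs to a start site inside the annotated gene. A match is a description of the letters and not of binding. The sequences of the gene with the largest difference and of the other gene with a match are shown with the match in capitals, beside that of Glul, whose groups were also apart and whose window held no match.
Slc1a2, chr2:102706188-102706437, plus strand: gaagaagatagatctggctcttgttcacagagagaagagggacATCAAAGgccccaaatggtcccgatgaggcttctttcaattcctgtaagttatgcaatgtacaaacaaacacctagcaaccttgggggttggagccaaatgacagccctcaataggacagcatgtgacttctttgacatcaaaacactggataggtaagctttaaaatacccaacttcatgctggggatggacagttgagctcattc
Lect2, chr13:56548539-56548788, minus strand: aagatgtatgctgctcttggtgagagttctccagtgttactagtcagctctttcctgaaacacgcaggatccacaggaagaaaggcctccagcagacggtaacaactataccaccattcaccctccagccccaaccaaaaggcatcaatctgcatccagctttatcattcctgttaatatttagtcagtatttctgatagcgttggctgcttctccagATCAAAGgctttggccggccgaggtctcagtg
Glul, chr1:153899679-153899928, plus strand: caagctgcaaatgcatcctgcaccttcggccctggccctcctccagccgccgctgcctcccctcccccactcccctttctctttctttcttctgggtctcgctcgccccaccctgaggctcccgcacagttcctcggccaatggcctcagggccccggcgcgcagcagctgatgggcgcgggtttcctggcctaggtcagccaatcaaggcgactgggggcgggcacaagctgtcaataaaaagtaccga

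Signals are log2 values made by RMA, in which a step of 1 is a doubling of signal. Amacr itself averaged 5.40 ± 0.13 in Amacr-/- and 11.96 ± 0.18 in wild-type livers (SD, n = 4 each), and its values went with the genotype label in all 8 arrays. The array medians were 6.64 to 6.66 in Amacr-/- and 6.62 to 6.66 in wild type. Amacr-/- replicate 2 had the lowest array weight, 0.300, and held the lowest value of the 8 arrays for 26.3% of all probe sets. Where a difference of the 10 genes moved by over 1.5 times or turned its sign without that array, the value without it is given. The 9 measured hepatocyte markers, such as albumin, averaged 13.90 to 13.94 in the Amacr-/- arrays and 13.95 to 13.98 in the wild-type arrays. Of the 9, 8 had lower means in Amacr-/-, against 43.8% of all probe sets. Ahsg, which encodes the plasma protein fetuin-A, had 14.09, 14.17, 14.07 and 14.09 in Amacr-/- and 14.21, 14.19, 14.23 and 14.18 in wild-type replicates 1 to 4, every Amacr-/- array lower (difference -0.10, limma adjusted p = 0.551). The part of this in the values of the 10 genes was not tested.

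None of the 10 genes passed the threshold between genotypes, which was an adjusted p under 0.05 in limma over all 16492 probe sets. In that comparison 19 probe sets, 0.115% of all, were called, 0.0424% lower and 0.0728% higher in Amacr-/-. At an unadjusted limma p under 0.05, 3 of the 10 were lower in Amacr-/- and 0 were higher, against 5.63% and 5.66% of all probe sets. In 3 of the 10, Slc1a2, Gulo and Glul, each Amacr-/- array lay below each wild-type array, and 0 were apart in the other direction. Of all probe sets, 3.25% were apart with the Amacr-/- arrays lower and 3.42% with them higher. The mean was lower in Amacr-/- for 8 of the 10 genes, against 43.8% of all probe sets, and the median difference was -0.15 over the 10 genes and 0.02 over all probe sets. The genes were chosen with earlier results of these arrays known, so these counts are no independent evidence of a direction. In whole liver, fewer cells of a type and less RNA per cell cannot be told apart.

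**Figure D1:**
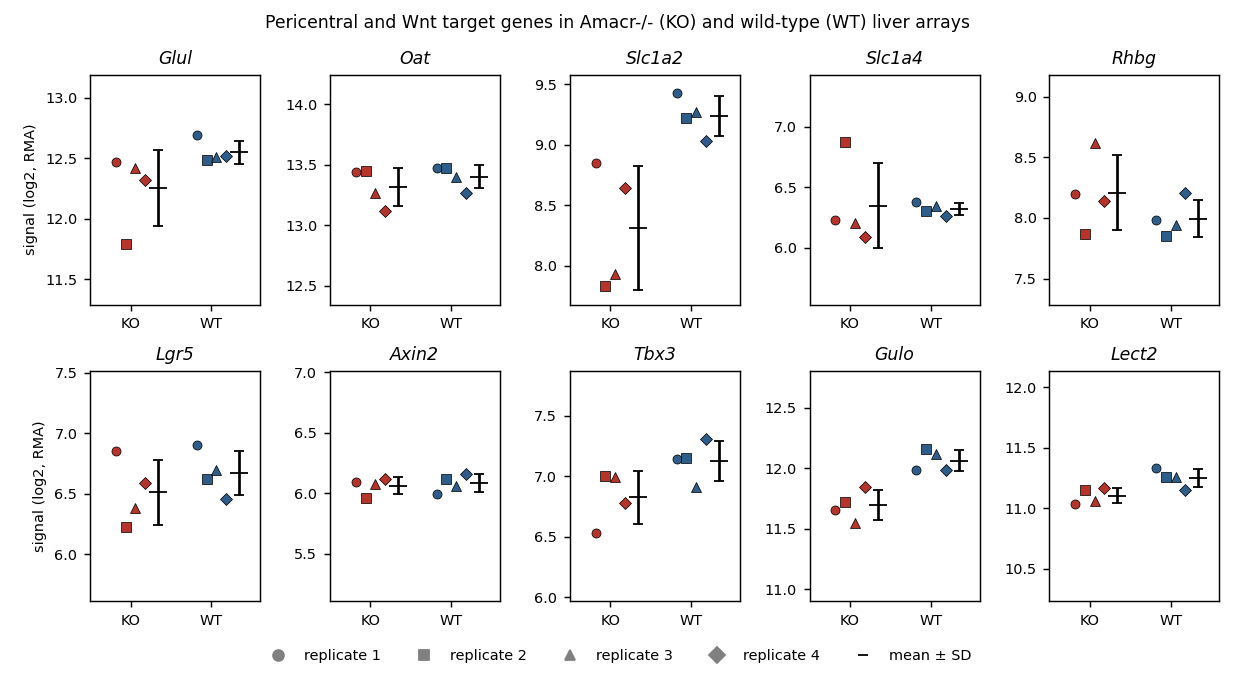
Signal of each gene (log2, RMA) in the 4 Amacr-/- arrays (KO, red) and the 4 wild-type arrays (WT, blue), with marker shapes for the replicates and the mean ± SD beside them. Every panel spans the same height in log2 units; the groups are apart for Glul, Slc1a2 and Gulo, and Amacr-/- replicate 2 lies low for Glul and high for Slc1a4.

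Glul and Oat are the enzymes of the group that handle glutamate. Glul, glutamine synthetase, which joins ammonium to glutamate and in liver is found in the hepatocytes that border the central vein, had 12.47, 11.79, 12.42 and 12.32 in Amacr-/- replicates 1 to 4, against 12.69, 12.48, 12.51 and 12.52 in wild-type replicates 1 to 4. The groups did not overlap, but Amacr-/- replicate 1 lay only 0.01 below the lowest wild-type array, which is the step of the deposited values. The difference was -0.30 (SE 0.14, limma adjusted p = 0.469; exact two-sided permutation p = 0.0286, the smallest that 4 against 4 can give). Amacr-/- replicate 2 carried much of it, and without that array the difference was -0.15. The spread was 0.31 in Amacr-/- and 0.09 in wild type (SD, n = 4 each).

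Oat, ornithine aminotransferase, which feeds ornithine carbon into glutamate, had 13.44, 13.45, 13.27 and 13.12 in Amacr-/- and 13.47, 13.47, 13.40 and 13.27 in wild-type replicates 1 to 4. The groups overlapped, and only Amacr-/- replicate 4 fell outside the wild-type range. Its difference of -0.08 (95% interval -0.29 to 0.12) was smaller than the SD of 0.16 among Amacr-/- arrays, and was -0.13 without replicate 2.

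Slc1a2 showed the largest difference of the 10. It encodes the glutamate transporter known as GLT-1, which carries glutamate into astrocytes in the brain and into pericentral hepatocytes in liver. Its signal was 8.85, 7.83, 7.93 and 8.64 in Amacr-/- replicates 1 to 4, against 9.43, 9.22, 9.27 and 9.03 in wild-type replicates 1 to 4. Every Amacr-/- array was below every wild-type array, and replicates 2 and 3 were the lowest. The means were 8.31 ± 0.51 in Amacr-/- and 9.24 ± 0.16 in wild type (SD, n = 4 each), a signal 1.90-fold lower in Amacr-/-. The difference had a 95% interval of -1.43 to -0.42 but did not pass over all genes (limma adjusted p = 0.177; exact permutation p = 0.0286). Leaving out 1 array at a time gave differences of -1.10 to -0.76, and the adjusted p over 17 alternatives lay between 0.104 and 0.402.

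Slc1a4, the neutral amino acid transporter ASCT1, is a relative of Slc1a2 that carries alanine, serine and cysteine. It had 6.23, 6.87, 6.20 and 6.09 in Amacr-/- and 6.38, 6.30, 6.34 and 6.26 in wild-type replicates 1 to 4. In Amacr-/- 3 arrays lay below all wild-type arrays and replicate 2 lay above them all. The mean difference was therefore close to 0, at 0.03 (SE 0.15, limma adjusted p = 0.956), and turned to -0.15 without replicate 2. It was also below 0, at -0.01, after quantile normalization of the deposited values.

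Rhbg encodes an ammonium channel of the Rhesus family found in pericentral hepatocytes. Its values were 8.20, 7.87, 8.62 and 8.14 in Amacr-/- and 7.98, 7.85, 7.94 and 8.21 in wild-type replicates 1 to 4. The groups overlapped, and Amacr-/- replicate 3 alone lay above the wild-type range. The difference was 0.21 (SE 0.15, limma adjusted p = 0.623) with all arrays, 0.08 without replicate 3 and 0.33 without replicate 2 (limma adjusted p = 0.249). Rhbg and Slc1a2, which carry the substrates of glutamine synthetase, had differences of opposite sign, and neither passed.

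**Figure D2:**
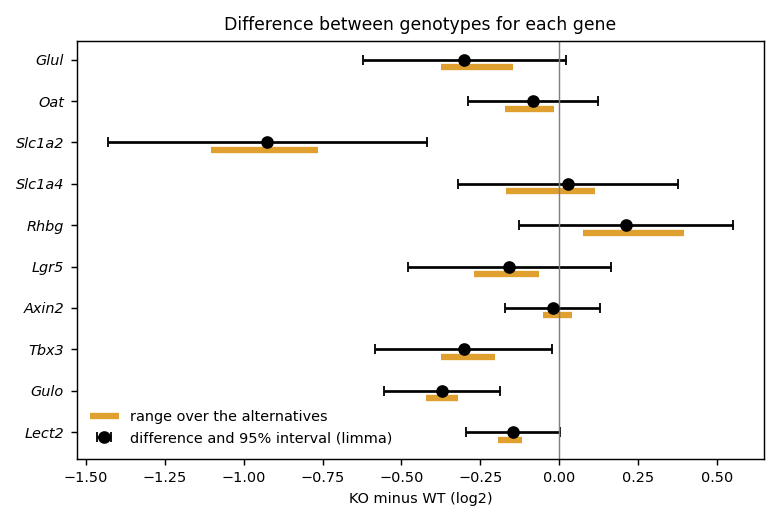
Difference in log2 signal, Amacr-/- minus wild type, for each of the 10 genes with its 95% interval from limma, and the range of the difference over the alternatives in orange. The intervals of Slc1a2, Gulo and Tbx3 lie below 0, and the range over alternatives crosses 0 for Slc1a4 and Axin2.

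Lgr5, Axin2 and Tbx3 are targets of Wnt signalling. Lgr5, a receptor for R-spondins, had 6.85, 6.23, 6.38 and 6.59 in Amacr-/- and 6.90, 6.62, 6.70 and 6.46 in wild-type replicates 1 to 4. The groups overlapped, with Amacr-/- replicates 2 and 3 below the wild-type range. The difference was -0.16 (SE 0.14, limma adjusted p = 0.706), within the SD of 0.27 in Amacr-/- and 0.18 in wild type. It was -0.06 without Amacr-/- replicate 2, -0.27 without Amacr-/- replicate 1 and -0.08 without wild-type replicate 1. Axin2, the scaffold of the beta-catenin destruction complex that Wnt signalling itself induces, was the flattest of the group.

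Axin2 had 6.09, 5.96, 6.08 and 6.12 in Amacr-/- and 5.99, 6.12, 6.06 and 6.16 in wild-type replicates 1 to 4. All 8 arrays lay within 0.20 of each other, and the 95% interval of its difference reached from -0.17 to 0.13. The difference was -0.02, and 0.01 without Amacr-/- replicate 2. A difference of the size of that in Slc1a2 lies outside this interval. Neither the signal of Axin2 nor that of Lgr5 could be set against background, because the table held no detection calls.

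Tbx3, a T-box transcription factor that hepatocytes express under beta-catenin, had 6.53, 7.00, 6.99 and 6.78 in Amacr-/- and 7.14, 7.15, 6.91 and 7.31 in wild-type replicates 1 to 4. Amacr-/- replicates 1 and 4 lay below the wild-type range, and replicates 2 and 3 lay inside it. The difference of -0.30 (SE 0.12) did not pass (limma adjusted p = 0.406; exact permutation p = 0.0857). The array with the lowest Tbx3, Amacr-/- replicate 1, was the highest Amacr-/- array for Slc1a2 and Lgr5.

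Gulo, L-gulonolactone oxidase, makes the last step of vitamin C synthesis in mice. It had 11.66, 11.72, 11.55 and 11.85 in Amacr-/- replicates 1 to 4, against 11.99, 12.16, 12.12 and 11.99 in wild-type replicates 1 to 4. Every Amacr-/- array was below every wild-type array, and the spread was small in both groups. The means were 11.70 ± 0.13 in Amacr-/- and 12.06 ± 0.09 in wild type (SD, n = 4 each), a signal 1.29-fold lower in Amacr-/-. The difference of -0.37 (SE 0.08) had the lowest adjusted p of the 10 genes, 0.138 in limma, with 0.0832 to 0.353 over 17 alternatives. Unlike Glul, Gulo did not rest on Amacr-/- replicate 2, without which the difference was -0.38.

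Lect2, a protein secreted by hepatocytes that attracts leukocytes, had 11.04, 11.15, 11.06 and 11.17 in Amacr-/- and 11.33, 11.26, 11.26 and 11.15 in wild-type replicates 1 to 4. Wild-type replicate 4 lay among the Amacr-/- arrays, so the groups overlapped, and the 95% interval of the difference ran from -0.29 to 0.0041 (limma adjusted p = 0.452).

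The 10 genes did not move as a block from array to array. Among Amacr-/- arrays the SD was larger than among wild-type arrays for 8 of the 10 genes, against 66.7% of all probe sets, with a median SD of 0.25 in Amacr-/- and 0.09 in wild type for the 10 genes. Over all probe sets the median SD was 0.14 in Amacr-/- and 0.11 in wild type. Amacr-/- replicate 2 held the lowest of the 8 values for 4 of the genes, Glul, Slc1a2, Lgr5 and Axin2, and the highest for Slc1a4. Over all probe sets that array held the lowest value for 26.3% and the highest for 17.5%. Deviations from the genotype mean were compared for all 45 pairs of the genes, and Pearson's r ranged from -0.85 to 0.93 with a median of -0.03.

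Slc1a2 and Lgr5 were the pair that ran together most closely. Replicates 1, 4, 3 and 2 followed each other downwards in both genes in Amacr-/-, and replicates 1, 3, 2 and 4 in wild type. No other pair had the same order of arrays in both genotypes. Their deviations correlated with Pearson's r = 0.93 and Spearman's rho = 0.95 over 8 arrays (exact permutation within genotype, p = 0.00174 and 0.00347; adjusted over the 45 pairs, 0.0781 and 0.156). Pearson's r was 0.81 without the 2 arrays farthest from the median of Slc1a2 and 0.90 without Amacr-/- replicate 2. The pair was singled out after its values were seen, it did not pass the adjustment, and the 2 genes were read on the same arrays. Tbx3 ran against them, with r = -0.82 and rho = -0.86 to Slc1a2 (exact permutation p = 0.0226 and 0.0208; adjusted over the 45 pairs, 0.338 and 0.234; r = -0.63 without the 2 farthest arrays). To Lgr5 it had r = -0.81 and rho = -0.88 (exact permutation p = 0.0330 and 0.0208, adjusted 0.371 and 0.234). Without the 2 farthest arrays that r was -0.58. Slc1a4 and Axin2 ran against each other with r = -0.78 and rho = -0.71, and r = -0.65 without the 2 farthest arrays. Their exact permutation p was 0.00347 and 0.0208, adjusted over the 45 pairs 0.0781 and 0.234.

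Wnt ligands known from the endothelium of the central vein were read beside the genes they act on. Wnt2 had 7.59, 6.59, 7.13 and 7.22 in Amacr-/- and 7.88, 7.14, 7.31 and 6.67 in wild-type replicates 1 to 4, a difference of -0.12 (SE 0.27, limma adjusted p = 0.893). The sign turned without Amacr-/- replicate 2, to 0.06, and without wild-type replicate 1, to 0.09. Its arrays stood in the same order as those of Lgr5 and Slc1a2 within each genotype. That order was shared by 31 of the 16492 probe sets, or 0.188%, Wnt2, Slc1a2 and Lgr5 included. It is 1 of 576 possible orders, so a share this small does not make it a rare one. Over the 8 arrays the deviations of Wnt2 and Lgr5 had r = 0.93 and rho = 0.93 (exact permutation p = 0.00347 for each; adjusted over 30 pairs of a ligand and a gene, 0.0694 and 0.0521), with r = 0.94 without the 2 arrays farthest from the median of Wnt2 and 0.90 without Amacr-/- replicate 2. Among the 30 pairs the highest r was that of Rspo3 and Oat, 0.94, with rho = 0.85. Its exact permutation p was 0.00694 and 0.0139, adjusted over the 30 pairs 0.0694 and 0.139. Wnt2 had r = 0.75 and rho = 0.81 with Slc1a2, and r = 0.65 without Amacr-/- replicate 2. The exact permutation p of that pair was 0.00521 and 0.00347, adjusted over the 30 pairs 0.0694 and 0.0521. With Glul, Wnt2 had r = 0.73 and rho = 0.64 (exact permutation p = 0.0208 and 0.0729, adjusted 0.156 and 0.438). Its r was -0.18 with Axin2 and -0.65 with Tbx3, and Rspo3 had r = 0.28 with Lgr5. Wnt2 was looked at after these values were seen.

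**Figure D3:**
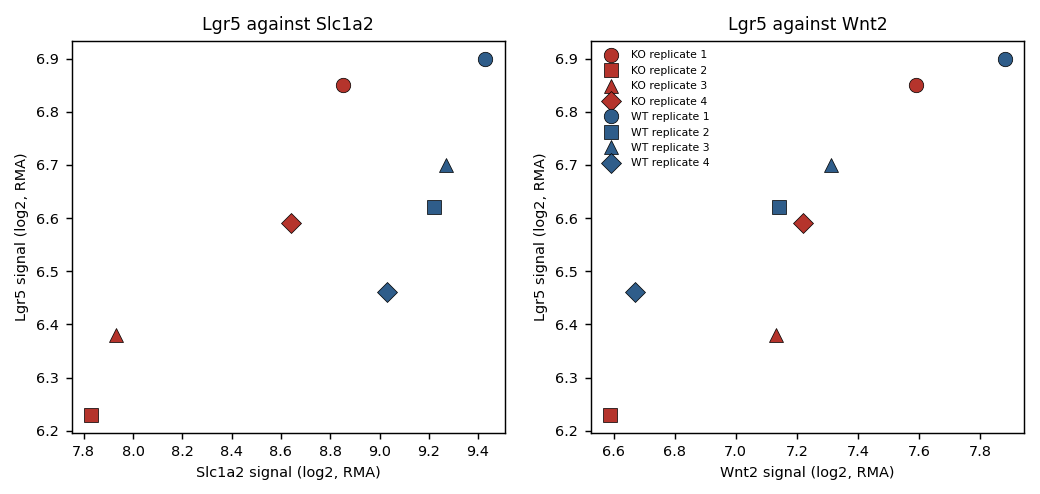
Lgr5 signal (log2, RMA, vertical axis) against Slc1a2 (left) and Wnt2 (right) in each array, with Amacr-/- arrays (KO) in red and wild-type arrays (WT) in blue. Within each genotype the arrays take the same order along both axes; at a like Lgr5 signal the Amacr-/- arrays lie at a lower Slc1a2 signal than the wild-type arrays.

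The other ligands of the central vein did not pass either. Wnt9b averaged 5.84 ± 0.14 in Amacr-/- and 5.87 ± 0.09 in wild type, and Rspo3, an R-spondin, averaged 6.42 ± 0.25 in Amacr-/- and 6.67 ± 0.28 in wild type (SD, n = 4 each). The limma adjusted p was 0.928 for Wnt9b, whose difference of -0.03 turned to 0.04 without Amacr-/- replicate 2, and 0.595 for Rspo3. Of 14 measured genes of Wnt ligands and their secretion, 0 passed in either direction and 0 had an unadjusted limma p under 0.05, with a median difference of -0.05, which turned to 0.04 without Amacr-/- replicate 2. Of 15 receptors and co-receptors, likewise 0 passed and 0 had an unadjusted limma p under 0.05, with a median difference of 0.01.

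Of 20 genes of signal transduction, 0 passed and, against 11.3% of all probe sets, 1 had an unadjusted limma p under 0.05. This was Pygo2, a nuclear co-factor of beta-catenin, with 7.94, 7.97, 7.77 and 7.91 in Amacr-/- and 8.12, 8.08, 8.03 and 8.14 in wild-type replicates 1 to 4 (difference -0.20, limma adjusted p = 0.325). Ctnnb1, which encodes beta-catenin, averaged 10.50 ± 0.08 in Amacr-/- and 10.59 ± 0.08 in wild type (SD, n = 4 each; limma adjusted p = 0.676). Of 16 inhibitors and feedback genes, 0 passed and 1, Rnf43, had an unadjusted limma p under 0.05, against 11.3% of all probe sets. Rnf43, a ubiquitin ligase that clears Wnt receptors and is itself a target of the pathway, had 7.43, 7.17, 7.57 and 7.49 in Amacr-/- and 8.03, 7.92, 7.52 and 7.57 in wild-type replicates 1 to 4. The groups overlapped and the difference did not pass (SE 0.14, limma adjusted p = 0.384).

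Of 13 other Wnt target genes, 5 also stand in the lists of inhibitors or signal transduction. Of the 13, 0 passed and, against 11.3% of all probe sets, 2 had an unadjusted limma p under 0.05. Both of these, Rnf43, already counted among the inhibitors, and Tnfrsf19, were lower in Amacr-/-. Tnfrsf19, a receptor of the tumour necrosis factor family also called Troy, had 6.06, 5.95, 5.58 and 5.70 in Amacr-/- and 6.52, 6.31, 6.11 and 6.42 in wild-type replicates 1 to 4, with every Amacr-/- array lower (difference -0.52, SE 0.13, limma adjusted p = 0.177). The median of the list was -0.13 with all arrays and -0.02 without wild-type replicate 1.

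Among 23 other pericentral genes without P450 genes, 0 passed, and the median difference was -0.08. At an unadjusted limma p under 0.05, 5 were lower and 2 higher, against 5.63% and 5.66% of all probe sets. Over the 16 other lists together, 10.4% of 211 distinct genes had such a p, against 11.3% of all probe sets. In 7.58% of the 211 the groups were apart, against 6.67% of all probe sets. Ang, the ribonuclease angiogenin, had 12.37, 12.19, 11.93 and 12.39 in Amacr-/- and 12.69, 12.70, 12.77 and 12.63 in wild-type replicates 1 to 4. Every Amacr-/- array was lower (difference -0.48, SE 0.10, limma adjusted p = 0.136). In the other direction stood Gstm3, a glutathione transferase, with 12.36, 13.50, 11.04 and 11.09 in Amacr-/- and 10.46, 10.93, 10.78 and 11.03 in wild-type replicates 1 to 4. Its Amacr-/- replicates 3 and 4 lay just above the highest wild-type array and replicates 1 and 2 far above it (limma adjusted p = 0.406).

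Periportal genes, from the opposite end of the lobule, had a median difference of 0.01 over 19 measured, with 0 past the threshold. At an unadjusted limma p under 0.05, 2 were lower and 3 higher, against 5.63% and 5.66% of all probe sets. Gldc, a subunit of the glycine cleavage system, had 10.44, 10.23, 10.37 and 10.06 in Amacr-/- and 9.17, 9.21, 9.57 and 9.62 in wild-type replicates 1 to 4. Every Amacr-/- array was higher (difference 0.88, SE 0.13, limma adjusted p = 0.0566), and the adjusted p was under 0.05 in 6 of 17 alternatives. G6pc, glucose-6-phosphatase, had the lowest difference of the list with the groups apart, at -0.66 (SE 0.21, limma adjusted p = 0.272).

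The genes of vitamin C synthesis and uptake read beside Gulo had differences of both signs, and of 8 such genes 0 passed. At an unadjusted limma p under 0.05, 1 was lower and 2 were higher, against 5.63% and 5.66% of all probe sets. The 2 higher were Ugdh and Slc23a1, a gene of uptake (limma adjusted p = 0.189 for Slc23a1). Rgn and Akr1a1 of the same list had differences of -0.08 and 0.09 (limma adjusted p = 0.661 and 0.591). Ugp2, which makes UDP-glucose, had 11.37, 10.88, 10.91 and 11.39 in Amacr-/- and 11.71, 11.63, 11.58 and 11.72 in wild-type replicates 1 to 4, every Amacr-/- array lower (difference -0.52, SE 0.13, limma adjusted p = 0.177). Ugdh, which oxidises UDP-glucose to UDP-glucuronate, had 12.78, 12.98, 12.67 and 12.59 in Amacr-/- and 12.16, 12.08, 12.04 and 12.24 in wild-type replicates 1 to 4, every Amacr-/- array higher. The Ugdh difference had a 95% interval of 0.41 to 0.84, with a limma adjusted p of 0.0586, and of 0.0389 without Amacr-/- replicate 2. Its adjusted p was under 0.05 in 6 of 17 alternatives. Ugdh also supplies glucuronate for conjugation, so it is not specific to vitamin C.

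Around glutamine synthetase, 13 enzymes of glutamine, glutamate and proline metabolism were measured, of which 0 passed. At an unadjusted limma p under 0.05, against 5.66% of all probe sets, 1 was higher. This was Abat, the transaminase that breaks down GABA, with 11.86, 11.88, 12.10 and 11.92 in Amacr-/- and 11.55, 11.49, 11.56 and 11.47 in wild-type replicates 1 to 4. Every Amacr-/- array was higher (difference 0.42, SE 0.07, limma adjusted p = 0.0712), and the adjusted p was under 0.05 in 2 of 17 alternatives. Of 20 further amino acid and ammonium transporters, 0 passed, with a median of 0.03. At an unadjusted limma p under 0.05, 2 of them were lower, against 5.63% of all probe sets. Slc7a5, a carrier of large neutral amino acids, was the member whose groups were apart, with 6.63, 6.30, 6.56 and 6.60 in Amacr-/- and 7.02, 6.64, 6.81 and 6.71 in wild-type replicates 1 to 4 (limma adjusted p = 0.378).

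**Figure D4:**
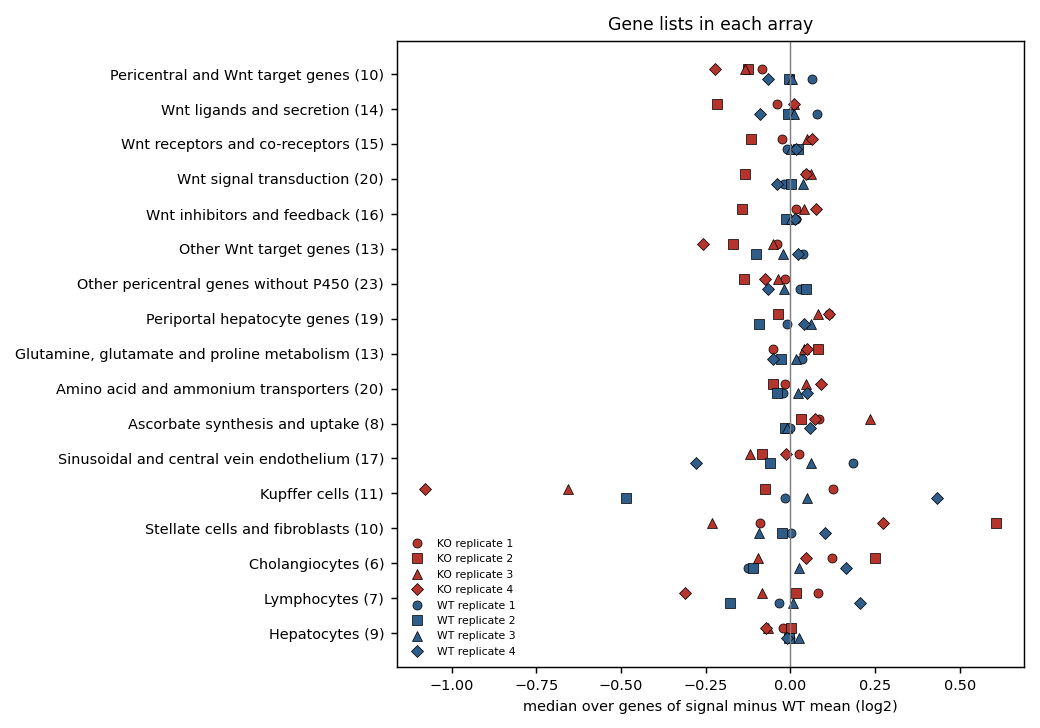
Median over the genes of each list of the log2 signal minus the wild-type mean of the gene, for each Amacr-/- array (KO, red) and wild-type array (WT, blue), with the number of measured genes in brackets. The median of the pericentral and Wnt target genes lies between -0.22 and -0.09 in Amacr-/- and between -0.07 and 0.06 in wild type, while the Kupffer cell list spans the widest range.

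Markers of other liver cells were read on the same scale. All 11 Kupffer cell markers had lower means in Amacr-/-, against 43.8% of all probe sets, and 0 passed. Their mean level was 8.14 to 9.27 in Amacr-/- and 8.74 to 9.62 in wild-type arrays. Set against the mean of wild type, the median of the list was 0.13, -0.08, -0.66 and -1.08 in Amacr-/- replicates 1 to 4, and -0.02, -0.49, 0.05 and 0.43 in wild-type replicates 1 to 4, so the groups overlapped. Of 17 endothelial markers, 13 had lower means in Amacr-/-, against 43.8% of all probe sets. The ligands Wnt2, Wnt9b and Rspo3, already read above, are among the 17 and among the 13. The mean level of the list was 7.31 to 7.62 in Amacr-/- and 7.28 to 7.77 in wild type. The 10 markers of stellate cells and fibroblasts averaged 7.83 to 8.75 in Amacr-/- and 7.97 to 8.16 in wild type, the 6 of cholangiocytes 5.09 to 5.68 in Amacr-/- and 5.18 to 5.47 in wild type, and the 7 of lymphocytes 5.69 to 5.99 in Amacr-/- and 5.65 to 6.21 in wild type. Amacr-/- replicate 2, the lowest array for Glul, was the array with the highest stellate cell median, 0.61. RMA values have no 0, so no marker could be called absent, and the part of these cells in the values of the 10 genes was not tested.

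By correlation over the 8 arrays, the genes most like Glul among 7620 candidates were Cyp2c37, a P450 gene (r = 0.97), Pdk1, a kinase of pyruvate dehydrogenase (r = 0.96), and Sned1 (r = 0.95). Cyp2c37 had 9.60 in Amacr-/- replicate 2, against 11.67 to 11.84 in the other Amacr-/- arrays and 11.71 to 12.28 in wild type. The likeness to Glul thus included the low value of that array. The genes most like Axin2 were Trex2 (r = 0.95), Scgn (r = 0.94) and Aox3, an aldehyde oxidase (r = 0.93), with limma adjusted p from 0.881 to 0.943 between genotypes. For both genes these were the highest r of 7620 candidates over only 8 arrays. How high r would reach by chance was not tested.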

How the data were processed

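Biotin-labelled total RNA of 8 mouse livers, 4 Amacr-/- and 4 wild type, was measured on arrays. The deposited table holds log2 values with 2 decimals, which the authors made with RMA per the submitters' processing notes. RMA corrects background, equalises the arrays and summarises probes, so a change shared by most genes would not show. The array type, version and filters are not given in the sources used here. Of 16556 probe sets, 64 array controls were left out. Names came from GEO's platform annotation, updated by Entrez number through RefSeq, and the probe set with the highest mean stood for a gene.

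Differences between genotypes come from limma 3.58.1, run in R 4.3.3 with its lmFit and eBayes functions (genotype as the only term, two-sided, Benjamini-Hochberg over 16492 probe sets, threshold 0.05), with no filter on low values. Intervals are limma's at 95%. Single genes also received an exact permutation test. Steps were tested on simulated data. Genes named beside the 10 were those apart between groups with the largest difference of each list in each direction, and the 3 most like Glul and Axin2. Other names, such as Wnt2, Wnt9b, Rspo3, Ctnnb1 and Rnf43, were picked with their values in view. The 10 genes, the 16 other lists and the 17 alternatives were chosen with earlier results of these data known. No depth or detection call exists, so the number of arrays limits the precision.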

Additional observations from a re-analysis of the deposited data

Results flagged for a closer look

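Among 27 genes tested in both groups, 2 of 54 groups held an array far from the other 3 by Dixon's criterion, which flags about 1 in 20 groups by chance. For Amacr, wild-type replicate 4 read 11.68, whereas the remaining wild-type values lay between 12.03 and 12.06. For Wnt9b, Amacr-/- replicate 2 read 5.64, and the other Amacr-/- values lay between 5.89 and 5.94. None of the 20 groups of the pericentral and Wnt target genes was flagged.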

How the results depend on the processing

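Under all 17 alternatives 0 of the 10 genes passed, and 159 of 167 single results kept their sign. The exceptions were Slc1a4, at -0.10 with array weights, -0.0084 with quantile normalization, -0.15 to 0.11 without single arrays (-0.15 without Amacr-/- replicate 2) and -0.17 without that array and wild-type replicate 4, and Axin2, at 0.017 with array weights, -0.051 to 0.014 without single arrays and 0.04 without the same pair of arrays. Outside the 10, Wnt2 ranged from -0.31 to 0.093 without single arrays, and Wnt9b from -0.06 to 0.042, with 0.0043 under array weights and 0.027 without the same pair. The table-wide count of 19 (7 lower, 12 higher) was 75 with array weights (34 lower, 41 higher), 38 after quantile normalization (14 lower, 24 higher), 53 in the set of probe sets with means above the median (22 lower, 31 higher), where fewer probe sets were tested, and 39 without Amacr-/- replicate 2 and wild-type replicate 4 together (21 lower, 18 higher). With an intensity trend 11 were lower. Leaving out 1 array gave 2 to 39 calls (1 to 18 lower, 1 to 21 higher). Of the other lists 0 genes passed, against 2 with an intensity trend, 1 with robust eBayes, 3 with array weights, 2 after quantile normalization, 1 after median centring, 3 in the set of probe sets with means above the median, 1 without both doubted arrays and 0 to 1 without any single array. Of 288 list medians, 277 moved by less than the spread between arrays; that of the Wnt ligands turned to 0.04 without Amacr-/- replicate 2. Lgr5, Axin2 and Slc1a4 have no value in the set with means above the median. There the median of the 7 remaining genes was -0.30. Labels number the replicates 1 to 4 in both genotypes. Deviations of same-numbered arrays correlated at 0.05, -0.03, 0.09 and -0.12, and those of differently numbered arrays at -0.18 to 0.16. These correlations gave no sign of a pairing by number. They cannot exclude a pairing of the livers, because the labels do not say whether animals shared a litter or cage. With the replicate block 1 probe set was called, 1 lower and 0 higher, and 0 of the 10 genes passed. The cause of these shifts was not tested. Signal over background could not be read, which limits what low signals show.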
